A study of Mus musculus with 2 samples.

Results

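The Mir17-92 cluster is a set of 6 miRNA hairpins, Mir17, Mir18, Mir19a, Mir20a, Mir19b-1 and Mir92-1, that are carried by 1 long noncoding RNA, Mir17hg. The members were chosen by name: they are the rows of the deposited tables whose Ensembl identifiers carry these symbols in the GENCODE annotation, 6 of the 1973 miRNA genes in the tables. All 6 identifiers were found in both libraries. The samples are limb tissue of mixed-sex mouse embryos of strain B6NCrl at embryonic day 10.5, profiled by small-RNA sequencing of fragments under 30 bases. There is 1 group with 2 biological replicates, each made from pooled embryos (69 for replicate 1, 51 for replicate 2), with no treatment and no altered genotype in the labels. With 1 group there is no contrast between conditions. The comparisons are between members, between seed families and between the replicates.

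A miRNA hairpin is cut out of its primary transcript by Drosha and trimmed by Dicer to a short duplex, 1 strand of which (the guide) is loaded into an Argonaute protein. The guide finds target mRNAs mainly through its seed, bases 2 to 8, so miRNAs with the same seed are grouped as a family. Mir17-92 promotes proliferation and survival of progenitor cells, was first known as an oncogene, and is activated by Myc proteins. In humans, loss of 1 copy of the host gene causes a form of Feingold syndrome with short digits, which links the cluster to limb development.

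The guide strands, from RefSeq on GRCm38.p6, are shown because their seeds divide the cluster into 4 families, and the capitals mark the seed. All are on the plus strand of chromosome 14.
miR-17-5p of Mir17: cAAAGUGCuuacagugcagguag
miR-20a-5p of Mir20a: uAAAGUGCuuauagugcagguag
miR-18a-5p of Mir18: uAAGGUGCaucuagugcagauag
miR-19a-3p of Mir19a: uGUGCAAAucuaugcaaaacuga
miR-19b-3p of Mir19b-1: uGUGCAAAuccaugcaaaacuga
miR-92a-3p of Mir92-1: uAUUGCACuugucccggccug

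Mir17 and Mir20a form the Mir17 family, known for targeting cell cycle regulators such as Cdkn1a and E2f1. Counted from the 5' end of miR-17-5p, miR-20a-5p differs by C1U and C12U, both outside the seed. The guide of Mir18, known for targeting the connective tissue growth factor Ctgf, differs from miR-17-5p within the seed by A4G alone. Mir19a and Mir19b-1 form the Mir19 family, known for targeting the thrombospondin gene Thbs1, and their guides differ by U11C. Mir92-1 carries the Mir92 seed, and its guide is known for targeting the integrin gene Itga5 in blood vessels. Which strand is the guide is textbook knowledge. The tables count reads per hairpin and do not separate the strands.

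The hairpins lie in a short stretch of the host. Mir17hg spans chr14:115042879-115046727 on the plus strand of GRCm38, the same build as mm10, and is annotated with 2 exons. All 6 hairpins lie in exon 2, in the order Mir17, Mir18, Mir19a, Mir20a, Mir19b-1, Mir92-1. Mir17 starts 792 bases from the annotated start of the host and Mir92-1 starts 1548 bases from it. The gaps between neighbouring hairpins are 96, 53, 75, 41 and 35 bases. Mir17 lies at chr14:115043671-115043754, Mir18 at chr14:115043851-115043946, Mir19a at chr14:115044000-115044081, Mir20a at chr14:115044157-115044263, Mir19b-1 at chr14:115044305-115044391 and Mir92-1 at chr14:115044427-115044506.

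The libraries differed in total depth, with 10064833 reads for replicate 1 against 7218612 for replicate 2. Sense counts in miRNA genes made up 35.6% and 49.5% of these. Those sense counts were nearly equal, at 3581672 and 3576482, and were used as the totals for CPM, counts per 1000000 sense counts. The limit that 0 counts would set is 0.838 CPM in the first library and 0.839 CPM in the second (3 counts). Multimapping reads made up 32.3% and 31.2% of the mapped reads and were assigned to no gene. The limb label was checked against 12 miRNA genes of Hox clusters, mesenchyme, cartilage and ectoderm. All 12 were detected with at least 10 sense counts in both libraries, and they summed to 208152 and 200612 CPM. Single genes differed more than the sums. Mir10a, Mir10b (83632 and 56035 CPM) and Mir205 were lower in replicate 2, and the other limb genes, such as Mir140 (1978 and 4767 CPM), were higher. Of 11 markers of liver, gut, brain, red blood cells and heart, 6 were detected, with a sum of 1599 and 1233 CPM. Most of this was Mir375 of gut and pancreas (1103 and 963 CPM) and Mir451a of red blood cells (423 and 230 CPM). The limb genes Mir199a-1 (12.8 and 28.8 CPM), Mir196a-1 (37.4 and 41.7 CPM) and Mir199a-2 (328 and 409 CPM) lay below Mir375. The sums therefore do not place every limb gene above every other marker. The 3 Mir124a genes of neurons were at 0, and they share mature sequence, so shared reads were counted at none of them. Their counts of 0 therefore do not show an absence of neural RNA. Of the other brain markers, Mir9-2 had 1 and 0 counts and Mir9-3 had 7 and 5, and Mir9-1 had no row under that symbol. Endothelial Mir126a was detected at 26707 and 23683 CPM. Fewer cells of a type and less RNA per cell cannot be told apart in such bulk tissue.

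The cluster took nearly the same share of the reads counted in miRNA genes in both libraries. Its members ranged from the second of all genes by counted reads to genes with 167 to 718 reads. The 6 members together had 505984 sense counts in replicate 1 and 511307 in replicate 2. These are 14.1% (14.09 to 14.16, exact 95% binomial interval) and 14.3% (14.26 to 14.33) of the sense counts, a mean of 14.2% ± 0.120 (SD, n = 2). The intervals here and below cover counting error only, since reads copied by PCR are not independent molecules. All 6 members were detected in both libraries, where 17.6% of all gene rows were. Mir17, Mir20a, Mir18 and Mir92-1, 4 of 6 members, were among the 20 most abundant genes by mean CPM, a set of 1.01% of all rows. Ranks here and below are by counted reads. Multimapping reads were assigned to no gene, so genes with copies at several loci may rank too low, by an amount the counts do not show. No antisense count fell on any member. Only 75 of all 1973 gene rows had one in at least 1 library, so this does not set the cluster apart.

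Mir17, the first hairpin of the transcript, had 311596 sense counts in replicate 1 and 334767 in replicate 2, which are 86997 and 93602 CPM. It ranked second of all genes in both libraries, below Mir335 (166020 and 186652 CPM) and above Mir10b (83632 and 56035 CPM), and the ranges of these neighbours did not overlap with its own. Mir17 alone held 61.6% (61.4 to 61.7) and 65.5% (65.3 to 65.6) of the cluster's counts.

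Mir20a, the fourth hairpin and the other member of the Mir17 family, had 106612 and 115803 counts, or 29766 and 32379 CPM. It ranked seventh in both libraries, between Mir10a and Mir126a, whose ranges did not overlap with its own. Mir20a held 21.1% and 22.6% of the cluster's counts. The ratio of Mir17 to Mir20a was nearly the same in both pools. Mir17 was 2.92-fold above Mir20a in replicate 1 and 2.89-fold in replicate 2, log2 ratios of 1.55 (1.54 to 1.56) and 1.53 (1.52 to 1.54). Each read of this size covers a mature miRNA and not a hairpin, so counts were not divided by length. Per base of hairpin (84 for Mir17 and 107 for Mir20a) the mean log2 ratio would be 1.89 in place of 1.54.

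Mir18, the second hairpin, had 42993 and 38259 counts, or 12004 and 10697 CPM. Its range overlapped with that of Mir23b, ranked next above it (15426 and 10664 CPM), and not with that of Mir130b, ranked next below (8963 and 10093 CPM). Mir92-1, the last hairpin, had 43651 and 21817 counts, or 12187 and 6100 CPM. The 2 libraries of Mir92-1 lay far apart, and its range overlapped with both rank neighbours, Mir106b (9220 and 9136 CPM) and Mir652 (10296 and 7618 CPM). Mir18 and Mir92-1 changed places. In replicate 1 the log2 ratio of Mir18 to Mir92-1 was -0.022 (-0.041 to -0.0027), with Mir92-1 just above, and in replicate 2 it was 0.81 (0.79 to 0.83), with Mir18 above.

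Both Mir19 genes were low. Mir19a, the third hairpin, had 718 and 494 counts, or 200 and 138 CPM. Mir19b-1, the fifth hairpin, had 414 and 167 counts, or 116 and 46.7 CPM. Each lies between hairpins with far more reads: Mir18 was 59.9-fold and 77.4-fold above Mir19a, its downstream neighbour, and Mir20a was 148-fold and 234-fold above Mir19a, the hairpin before it. Mir20a was also 258-fold and 693-fold above Mir19b-1, and Mir92-1 was 105-fold and 131-fold above Mir19b-1. Mir19a was above Mir19b-1 in both libraries, with log2 ratios of 0.79 (0.62 to 0.97) and 1.56 (1.31 to 1.83). By rank, Mir19a stood at 163 next to Mir223 and Mir3071, and Mir19b-1 at 201 next to Gm26117 and Mir1247. The ranges of these neighbours overlapped with those of the Mir19 genes, so their ranks are not separated.

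**Figure D1:**
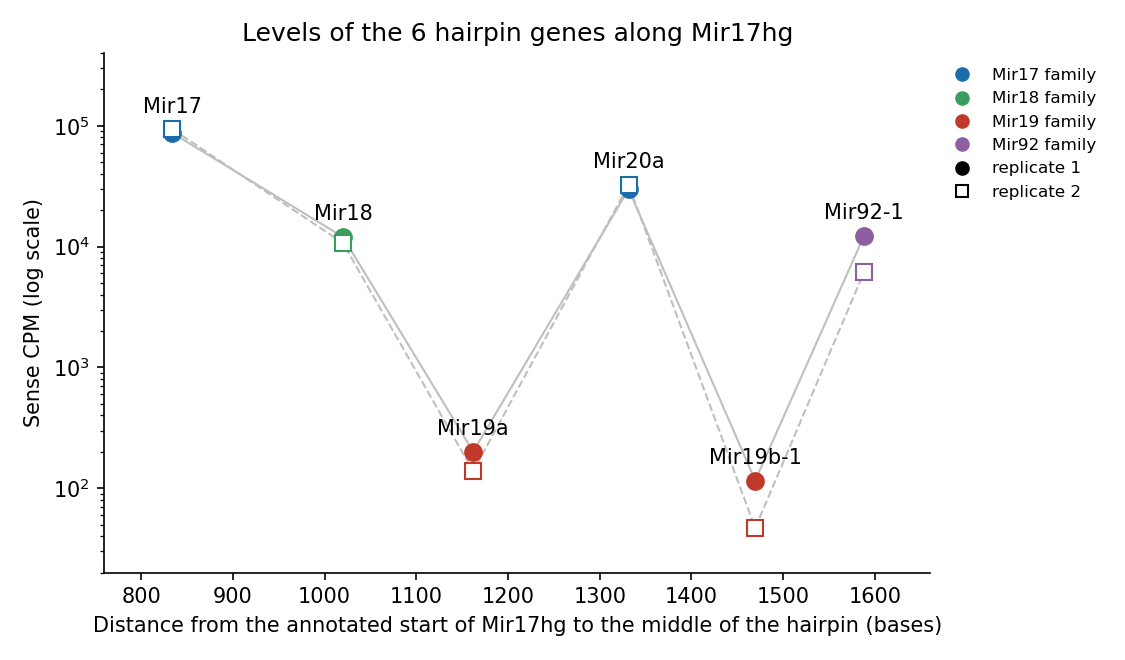
Sense CPM (log axis) of each hairpin gene against the distance of its middle from the annotated start of Mir17hg, in bases; filled circles are replicate 1, open squares replicate 2, colours mark the seed family and grey lines join the values of 1 library. Levels do not fall steadily along the transcript: Mir17, Mir18, Mir20a and Mir92-1 lie between 6100 and 93602 CPM, with Mir19a and Mir19b-1 between 46.7 and 200 CPM among them.

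The order of levels was therefore Mir17, Mir20a, then Mir18 and Mir92-1 in no settled order, then Mir19a and Mir19b-1. Of the 15 pairs of members, 14 had the same direction in both libraries, the exception being Mir18 and Mir92-1. Mir17 was 753-fold above Mir19b-1 in replicate 1 and 2005-fold in replicate 2, a mean log2 ratio of 10.26 ± 0.996 (SD, n = 2). Set against mean CPM across the 6 members, Spearman's rho was -0.6 for order in the transcript and 0.486 for hairpin GC content. It was 0.435 for guide GC content and 0.257 for the folding energy that RNAfold computed. The energies are negative and were not divided by hairpin length, so a positive rho stands for weaker folding at higher CPM. This held only loosely: Mir20a, high in CPM, had -38.6 kcal/mol, and Mir19a, low in CPM, had -38.7 kcal/mol. All 4 rho values rank Mir18 above Mir92-1, which was the order in replicate 2 and not in replicate 1. Each would differ in replicate 1 alone, so which property has the largest rho is not settled. They are descriptions of 6 hairpins that share 1 transcript and the same libraries. An exact sign-flip test of 2 libraries cannot go below a two-sided p of 0.5, so no p is printed.

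**Figure D2:**
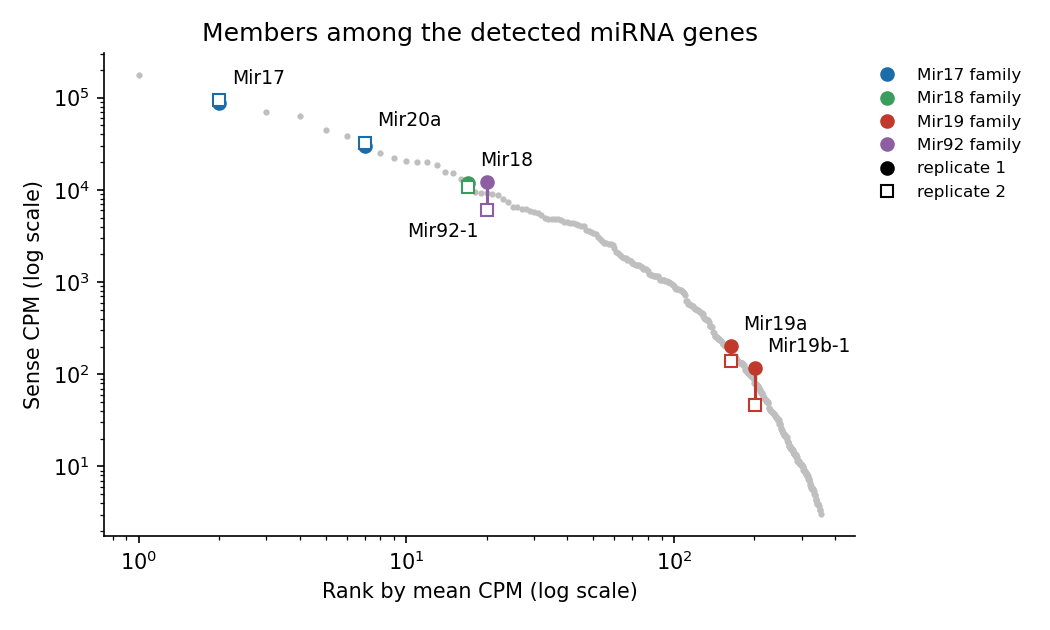
Sense CPM (log axis) against rank by mean CPM (log axis) for the detected miRNA genes; grey points are means of other genes and coloured symbols are the members in replicate 1 (filled circles) and replicate 2 (open squares). Of the members, 4 lie within the first 20 ranks, from Mir17 at rank 2 to Mir92-1 at rank 20, and Mir19a and Mir19b-1 lie at ranks 163 and 201.

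How reads were placed bears on the members unequally. The guides of Mir17, Mir18, Mir19a and Mir20a were found in no other hairpin of the RefSeq table. The guide of Mir19b-1 is also encoded by Mir19b-2, and that of Mir92-1 by Mir92-2, both in the related cluster on chromosome X. The 4 hairpins are printed to show how far the copies agree, and capitals mark the longest run shared by each pair.
Mir19b-1 (chromosome 14): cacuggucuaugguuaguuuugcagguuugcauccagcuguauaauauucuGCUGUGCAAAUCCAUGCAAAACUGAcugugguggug
Mir19b-2 (chromosome X): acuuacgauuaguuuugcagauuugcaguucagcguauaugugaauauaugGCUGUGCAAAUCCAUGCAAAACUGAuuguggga
Mir92-1 (chromosome 14): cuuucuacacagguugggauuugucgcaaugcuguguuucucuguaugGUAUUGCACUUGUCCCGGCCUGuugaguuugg
Mir92-2 (chromosome X): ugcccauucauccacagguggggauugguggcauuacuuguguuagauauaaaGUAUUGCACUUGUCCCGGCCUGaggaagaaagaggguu

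The run shared by the Mir19b hairpins is 25 bases and that of the Mir92 hairpins 22, and both end exactly at the 3' end of the guide. A read of the annotated guide matches both copies, and a read that runs 1 base past its 3' end does not. A read that matched both loci was counted at neither, so Mir19b-1 and Mir92-1 may be undercounted, by an amount the tables do not show. The 2202818 and 1831161 multimapping reads are not divided by sequence. The longest run shared with any other hairpin of the table is 13 bases for Mir17 and Mir19a, and 17 for Mir18 and Mir20a. None of these runs holds the whole guide, and that of Mir20a, shared with Mir3966, holds 0 bases of it. Whole guides can still be alike. The guide of Mir17 differs from that of Mir106a by 1 base, U10A. The guides of Mir20a and Mir20b differ by 2 bases, as do those of Mir18 and Mir18b. Whether mismatched reads were placed between such genes was not tested, since the aligner is not given. Mir17 was 434-fold and 678-fold above Mir19a. The part of read placement, or of how well library preparation captured each sequence, in the low Mir19 counts was not tested.

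By seed family, the Mir17 family held most of the cluster. Mir17 and Mir20a together had 82.7% (82.5 to 82.8) of the cluster's counts in replicate 1 and 88.1% (88.03 to 88.21) in replicate 2, a mean of 85.4% ± 3.87 (SD, n = 2). Mir18 held 8.50% (8.42 to 8.57) and 7.48% (7.41 to 7.56). Mir92-1 held 8.63% (8.55 to 8.70) and 4.27% (4.21 to 4.32). The Mir19 family, though it has 2 of the 6 hairpins, held 0.224% (0.211 to 0.237) and 0.129% (0.120 to 0.140). The Mir17 family held a higher share in replicate 2 and each of the other families a lower one.

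**Figure D3:**
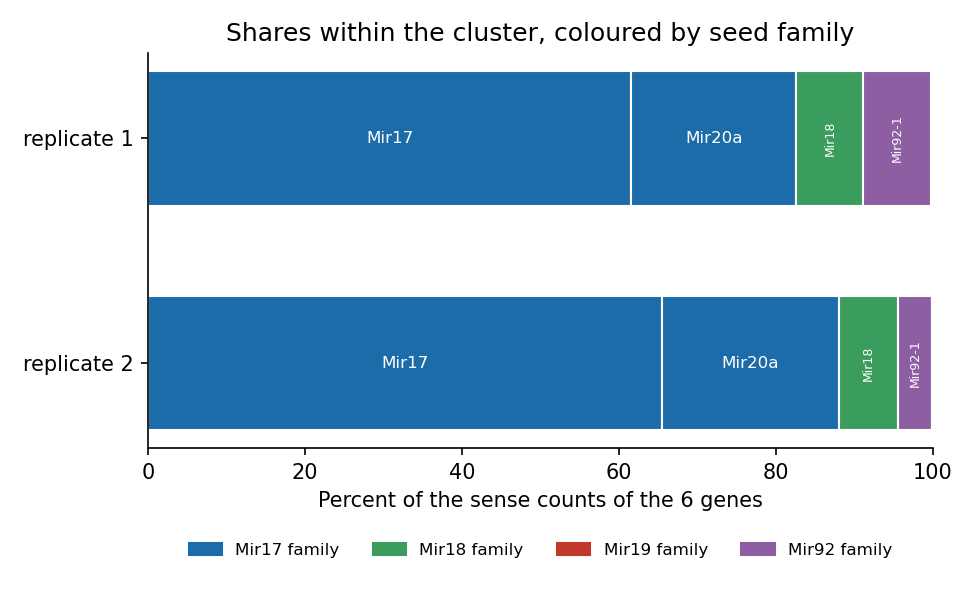
Percent of the cluster's sense counts held by each member in replicate 1 and replicate 2, as stacked bars coloured by seed family. Mir17 and Mir20a fill 82.7% of the upper bar and 88.1% of the lower, Mir92-1 narrows from 8.63% to 4.27%, and the Mir19 family, at 0.224% and 0.129%, is too small to see.

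The cluster total was nearly equal in the pools while some of its members differed between them. The log2 ratio of the total, replicate 2 minus replicate 1, was 0.017 (0.012 to 0.023). Its counterpart over all 250 genes whose mean count was 100 or more was a median of -0.27, with a 5th to 95th percentile range of -1.32 to 0.61. Scaling by TMM factors, by which edgeR allows for unequal composition of libraries, adds 0.28 to every ratio and puts the total at 0.30. The values are therefore also given relative to that median, which no scaling moves. Mir20a had a log2 ratio of 0.12 (0.11 to 0.13) and Mir17 of 0.11 (0.10 to 0.11), 0.39 and 0.38 above the median of all genes. Mir18 was at -0.17 (-0.19 to -0.15), 0.10 above the median, and turned positive at 0.12 with TMM and 0.11 with DESeq2 size factors.

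The other members lay below the median of all genes. Mir19a was at -0.54 (-0.71 to -0.37), Mir92-1 at -0.998 (-1.02 to -0.975) and Mir19b-1 at -1.30 (-1.58 to -1.05), which is -0.27, -0.73 and -1.03 relative to that median. More than 2-fold lower in replicate 2 was 1 of 6 members, Mir19b-1, where 9.6% of the 250 genes were, and Mir92-1 at 1.998-fold lay just short of it. No member was over 2-fold higher, where 1.2% of the genes were. Lower in replicate 2 by any amount were 4 of 6 members, where 66.8% of the genes were, and with TMM scaling 3 of 6 members, where 48.4% were. Beside these shares the counts do not set the cluster apart. The biological coefficient of variation over 348 genes by edgeR was 0.301.

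**Figure D4:**
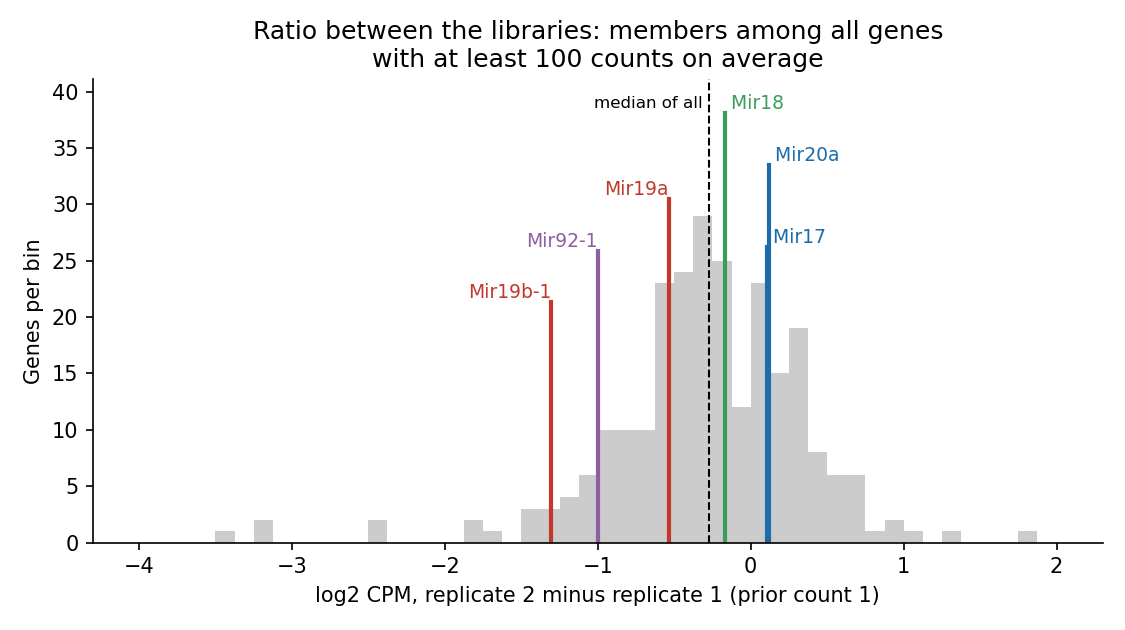
Histogram of the log2 CPM ratio, replicate 2 minus replicate 1, of the 250 genes with a mean count of 100 or more (grey, genes per bin), with the median of all as a dashed line and the members as coloured lines whose heights only separate the labels. Mir17 and Mir20a lie together at 0.11 and 0.12, Mir18 at -0.17, and Mir19a, Mir92-1 and Mir19b-1 at -0.54, -0.998 and -1.30.

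Pairs of members moved against each other by unequal amounts. The log2 ratio of Mir17 to Mir20a changed by -0.016 between the libraries, the smallest change of the 15 pairs. The median change was 0.658 in size. The largest was 1.42, for Mir20a to Mir19b-1. Mir17 to Mir92-1 went from 7.14-fold to 15.3-fold and Mir17 to Mir18 from 7.25-fold to 8.75-fold. Ratios within a library do not depend on the scaling, so the counts of hairpins of the same transcript changed by different amounts here. Every log2 change above 1 in size was in a pair with Mir19b-1 or Mir92-1. Their counts leave out reads that matched 2 loci, and the part of such reads in the changes was not tested. With 1 library on each side the changes have no replicate check.

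Among other genes with at least 1000 counts on average, the ratios between libraries closest to that of the cluster total were those of Mir339 (510 and 511 CPM), Mir324 (2608 and 2595 CPM) and Mir182 (3352 and 3327 CPM). Their log2 ratios were 0.0029, -0.0074 and -0.011. They differed from the cluster total by 0.0143 to 0.0281 among 137 genes compared, a likeness over 2 libraries only.

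Most counted reads of each seed family were placed in Mir17hg. The family seeds were also found on an annotated strand of other genes, and 6 of 7 genes with the Mir17 seed had reads. Mir17 and Mir20a gave 79.7% and 80.3% of the sense CPM of these genes, with Mir93 (14432 and 16685 CPM) and Mir106b next. Mir6383 shares the seed and had no count. Mir18 gave 97.8% and 98.7% of its family, the rest being Mir18b on chromosome X (266 and 144 CPM). The Mir19 genes of the cluster gave 94.2% and 91.4% of theirs, and Mir19b-2 had 19.5 and 17.3 CPM. So the whole Mir19 family was low in counted reads, at 336 and 202 CPM, with the limit on Mir19b given above.

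Mir92-1 gave 71.2% and 68.5% of the CPM of its family, which has 7 genes in the tables. Reads of the guide that matched both Mir92-1 and Mir92-2 are not in these shares. The others were Mir363 (2366 and 1135 CPM), Mir25 (858 and 778 CPM), Mir92-2 (954 and 306 CPM), Mir92b (515 and 385 CPM), Mir32 (240 and 205 CPM) and Mir367, which had 0.279 and 1.40 CPM, so few reads that no direction can be read from them. All but Mir367 had a lower CPM in replicate 2, as did 66.8% of the 250 genes with a mean count of 100 or more. With TMM scaling 48.4% of those 250 genes were lower. Mir25 and Mir32 then turned, from log2 ratios of -0.14 and -0.22 to 0.14 and 0.06. The family total went from 17120 to 8910 CPM, a log2 ratio of -0.94 (-0.66 with TMM). That of the Mir17 family went from 146545 to 156849 CPM, a log2 ratio of 0.10 (0.38 with TMM).

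**Figure D5:**
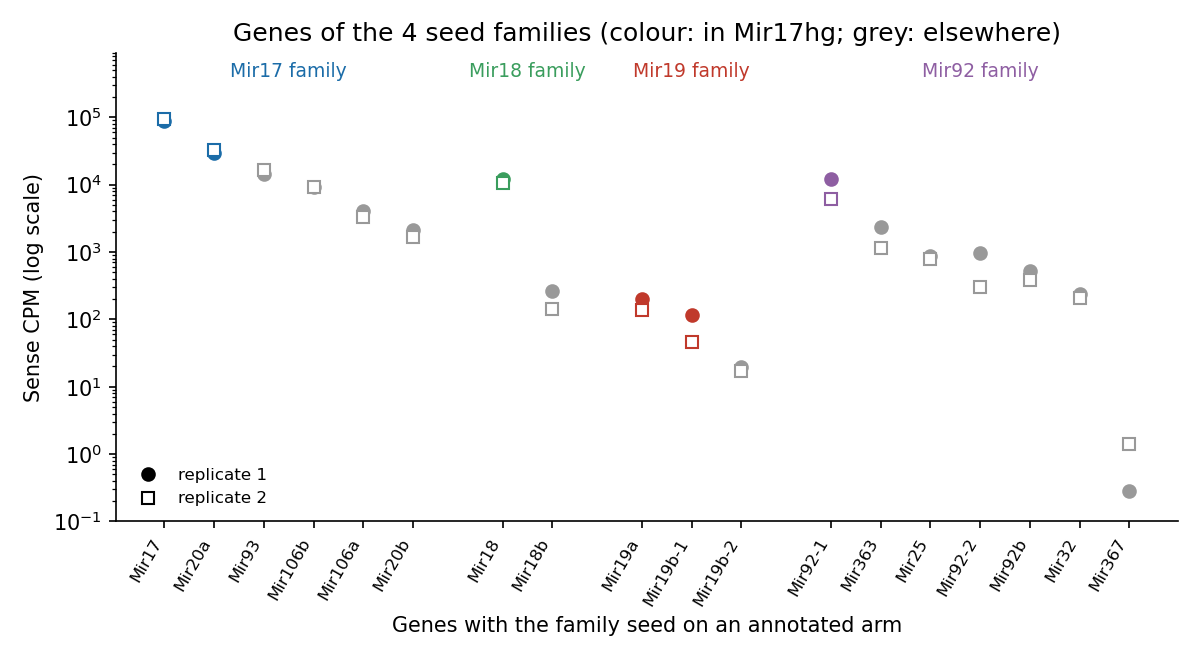
Sense CPM (log axis) of the genes that carry each family's seed on an annotated strand, with filled circles for replicate 1 and open squares for replicate 2; coloured genes are in Mir17hg, grey ones elsewhere, and Mir6383, with no count, is not drawn. In each of the 4 families the highest gene is one of Mir17hg, and the highest gene of the Mir19 family, at most 200 CPM, is the lowest of these 4.

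The related clusters had lower totals. The cluster on chromosome X (Mir106a, Mir18b, Mir20b, Mir19b-2, Mir92-2 and Mir363) summed to 9735 and 6648 CPM and the Mir106b-25 cluster on chromosome 5 to 24510 and 26599 CPM, against 141270 and 142964 CPM for Mir17-92. Between counterparts with the same seed, Mir17 was 21.6-fold and 27.9-fold above Mir106a, Mir18 45.2-fold and 74.4-fold above Mir18b, and Mir20a 14.2-fold and 19.2-fold above Mir20b. Mir92-1 was 12.8-fold and 19.96-fold above Mir92-2, and Mir19b-1 5.91-fold and 2.69-fold above Mir19b-2. Mir92-1 and Mir92-2 carry the same guide, as do Mir19b-1 and Mir19b-2, so reads that matched both loci are in neither count. The guides of Mir17 and Mir106a differ by 1 base. Those of Mir18 and Mir18b differ by 2, as do those of Mir20a and Mir20b. Placement of mismatched reads between these counterparts was not tested. In counted reads the Mir19b hairpin was the lowest of its cluster in both places. The highest member was 206-fold and 194-fold above the lowest in the cluster on chromosome X and 16.8-fold and 21.4-fold in Mir106b-25, less than the 753-fold and 2005-fold within Mir17-92. In Mir17-92 and in the cluster on chromosome X the lowest is a Mir19b hairpin, so the limit on shared reads bears on these spreads. The difference in spread was not tested.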

How the data were processed

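Per the deposited readme texts, reads of each library were aligned to mm10 and counted with GENCODE M4, with aligner and counter not given in the sources used here. The authors deposited raw counts per miRNA gene in 3 strand columns, with 4 rows for reads given to no gene. Symbols came from GENCODE M21 (GRCm38; 1894 of 1973 identifiers matched). Sequences came from RefSeq (GRCm38.p6), where all 6 hairpins matched by symbol and coordinates; other copies of a guide were sought in its hairpins only, and those of chromosome 18 were not used. CPM used sense counts over all gene rows without the 4 rows. Log2 ratios carry a prior count of 1. Intervals are exact binomial, 95%. Genes named are the members, the genes of the related clusters, the rank neighbours, the 3 genes of closest ratio, the markers and the genes that share a seed; the last were chosen after their values were seen. Members and lists were chosen with earlier results of these data known. No p-values were computed. The code for the ratios was tested on data simulated with counting error only, which cannot show how the intervals cover variation between pools. Alternatives were both strands together, each replicate left out, several-locus members left out, other denominators, count minimums and prior counts, TMM (edgeR 4.0.16) and DESeq2 1.42.0 size factors; counts per hairpin length were added after seeing the data. Python 3.11.15, scipy 1.17.1 and R 4.3.3 were used.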

Additional observations from a re-analysis of the deposited data

How the results depend on the processing

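The cluster's share of 14.2% became 13.9% with both strands counted, 13.3% without Mir19b-1 and Mir92-1, 13.6% per hairpin length, 17.3% without Mir335 in the denominator and 9.10% with multimapping reads in the denominator. Without Mir19b-1 and Mir92-1, the share of Mir17 was 67.9% in place of 63.5%, that of the Mir17 family 91.3% in place of 85.4%, and the log2 ratio of the highest to the lowest member 9.08 in place of 10.26. Per hairpin length, the share of Mir17 was 67.1% and the log2 ratio of Mir17 to Mir20a 1.89. The log2 ratio of the cluster total between libraries was 0.017. It became 0.026 with both strands, 0.085 without Mir19b-1 and Mir92-1, 0.30 with TMM, 0.31 with TMM and no filter on low counts and 0.29 with DESeq2 size factors. Mir18 turned from -0.17 to 0.12 with TMM and 0.11 with DESeq2 size factors, and no other member changed sign. The 6 members were detected at count minimums of 1, 10 and 100. With 1 replicate left out, the cluster share ranged from 14.1% to 14.3%, the share of Mir17 from 61.6% to 65.5% and the log2 ratio of the highest to the lowest member from 9.55 to 10.96. No paired analysis was possible because there is 1 group. The counts cannot show Mir19b and Mir92 reads placed at 2 loci, whatever the depth.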
